A study of Homo sapiens with 32 samples.

Results

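Interferon-stimulated genes are the genes a cell switches on when interferon, secreted by infected or alarmed cells, reaches its receptor. Type I interferons bind a receptor made of IFNAR1 and IFNAR2, the attached kinases JAK1 and TYK2 phosphorylate STAT proteins, and STAT2 acts with IRF9 in a complex that binds the interferon-stimulated response element (ISRE) in the promoters of its targets. Many of the products block viruses or sense their RNA, and several feed back on the pathway itself. Epithelial cells keep many of them at a low baseline. The set examined here holds 42 such genes, chosen by symbol and found by their Ensembl identifiers, out of 60660 genes in the count table. All 42 were found.

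The cells were HCT116, a human colorectal carcinoma line, carrying a doxycycline-inducible (tetON) OsTIR1 transgene in every group, parental controls included. Poly(A) RNA was sequenced in 32 libraries from 8 lines: parental cells given as sample 1 and sample 2, IGF2BP3 knockout clones A3, D12 and E4, and IGF2BP2 knockout clones B7, F6 and G6. IGF2BP2 and IGF2BP3 encode RNA-binding proteins of one family. Every knockout line is a single-cell clone sorted after transient Cas9 and guide transfection, with A3 and E4 sharing a guide, B7 and F6 sharing another, and D12 and G6 each made with a guide of its own. Each line had 2 libraries in DMSO and 2 in tunicamycin, a blocker of N-linked glycosylation that stresses the endoplasmic reticulum. This gave 4 and 4 parental, 6 and 6 IGF2BP3 knockout and 6 and 6 IGF2BP2 knockout libraries. Tunicamycin was used at 5 µg/mL for 4 h against DMSO at 1:1000, as stated for the parental cells and IGF2BP3 knockout clones; for the IGF2BP2 knockout clones the dose and time are not given in the sources used here. The replicates are not stated to be separate cultures, so p-values measure the spread between these libraries, which may be technical.

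A library held between 16651438 and 24913021 counts in total (median 21441775.5). Levels below are CPM, counts scaled to library size with TMM over the 32 libraries. The epithelial markers EPCAM (mean 274 CPM), KRT8 (2187 CPM), KRT18 (581 CPM) and KRT19 (965 CPM) were high, while the intestinal markers VIL1, CEACAM5 and CDX1 were at or under 0.0376 CPM and the leukocyte marker PTPRC averaged 0.00812 CPM. A further intestinal marker on the list, CDX2, had enough counts to be tested. The control libraries of clone G6 are titled as controls, whereas the treatment characteristic names tunicamycin; here they count as DMSO. Tunicamycin raised DDIT3, a stress-induced transcription factor, by 6.81, 6.45 and 6.54 on the log2 scale in parental, IGF2BP3 knockout and IGF2BP2 knockout cells. IGF2BP2 transcript in clone F6 lay between 90.4 and 114 CPM, against 158 to 205 CPM in parental libraries.

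Promoters of these genes are recognisable by their ISRE, here searched on either strand as GAAA, any 2 bases and GAAA again, in the RefSeq promoter windows of GRCh38.p14, which run from 250 bases before to 50 after a gene's start. Of the 42 genes 34 had such a window, and 23 of these (67.6%) held an ISRE, against 1195 of 27305 genes with windows (4.38%). The gamma-activated site, TTCNNNGAA, which reads the same on both strands, was in 11 of the 34 (32.4%) and in 9.38% of all genes. The stretches below show the ISRE in capitals, on the gene's own strand from 5′ to 3′; adjoining matches form a longer capital run. The first 6 belong to genes that were higher in clone F6 and the last 3 to genes that were not called there.
SAMD9: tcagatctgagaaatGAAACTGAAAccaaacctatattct
PARP9: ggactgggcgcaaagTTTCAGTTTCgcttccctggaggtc
DTX3L: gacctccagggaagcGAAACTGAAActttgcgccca
PARP14: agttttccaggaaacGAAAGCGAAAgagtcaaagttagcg
ISG15: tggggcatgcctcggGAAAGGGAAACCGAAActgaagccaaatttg
IFIT1: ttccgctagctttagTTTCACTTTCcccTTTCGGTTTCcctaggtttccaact
The SAMD9 stretch is at chr7:93118091-93118130, PARP9 at chr3:122564317-122564356, DTX3L at chr3:122564317-122564352, PARP14 at chr3:122680795-122680834, ISG15 at chr1:1013369-1013414 and IFIT1 at chr10:89392492-89392544.
HERC5: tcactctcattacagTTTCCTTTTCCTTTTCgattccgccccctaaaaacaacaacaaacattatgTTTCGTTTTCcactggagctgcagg
IFI6: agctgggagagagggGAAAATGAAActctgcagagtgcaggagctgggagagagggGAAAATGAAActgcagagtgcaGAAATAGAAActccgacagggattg
IFITM3: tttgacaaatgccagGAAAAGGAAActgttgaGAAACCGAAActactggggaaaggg
These last 3 are at chr4:88456979-88457069, chr1:27672261-27672363 and chr11:320871-320927. SAMD9, PARP9, IFI6 and IFITM3 are on the minus strand and the others on the plus strand. In these windows PARP9 and DTX3L lie on opposite strands and read the same ISRE, from 122564332 to 122564341 on chromosome 3, in opposite directions. Among members higher in F6 than in B7 and G6, 9 of the 12 with a window held an ISRE (75%), against 8 of the 13 tested and not called (61.5%). HERC6, RIGI and STAT2 were higher in F6 and had no match in these windows.

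Most of the pathway was read at a low baseline. Of the 42 genes, 26 averaged at least 1 CPM. IFITM3, a membrane protein that blocks virus entry, had a median of 144 CPM in the 28 libraries outside F6. OAS3, an RNA-activated synthetase that turns on RNase L, had a median of 68.8 CPM, and ISG15, a ubiquitin-like modifier, one of 36.4 CPM. The classical effectors were nearly silent: MX1 averaged 0.315 CPM, OAS1 0.0456 CPM, OAS2 0.0547 CPM, RSAD2 (viperin) 0.0943 CPM, IFI44L 0.00578 CPM and IFI27 0.108 CPM. IRF9 and XAF1 had 0 counts in all 32 libraries, which allows a summed level of up to 0.00442 CPM for 3 counts over the 32 libraries, counting error only. In GENCODE release 29, IRF9 shares 48.4% of its exon bases with AL136295.5 on the same strand, a gene that also had 0 counts. XAF1 shares 38.3% with PRAL on the other strand. The remaining exon bases of both genes are not shared in that release. Whether the assignment of shared reads had a part in these zeros was not tested, and the annotation behind the counts is not given. IFITM1 and IFITM2 share 351 exon bases on the same strand, and their values are uncertain for that reason.

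The signalling route itself was only in part visible. IFNAR1 lay between 53.6 and 69.1 CPM over all 32 libraries. IFNAR2 lay between 0 and 0.250 CPM; it shares 44.2% of its exon bases with AP000295.1 on the same strand. Of 21 interferon genes, 10 had no count in any library, IFNB1 had 1 count in 1 library, and the sum of the 21 lay between 0.189 and 0.441 CPM in F6 and between 0 and 0.826 CPM in the other libraries. None of them passed the filter on low counts in the comparison of F6 with B7 and G6.

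To ask how one clone compared with its sister clones, F6 was set beside B7 and G6, which carry the same knockout. Of the 30 members that passed the filter on low counts, 14 were higher in F6 at an adjusted p under 0.05 and 0 were lower, while 5.44% of all 14952 genes tested were higher and 6.02% lower (edgeR's quasi-likelihood test, Benjamini-Hochberg adjustment over all genes; 17 members had an unadjusted p under 0.05). The members' median log2 fold change was 0.43, against a median of -0.0045 over all genes. By role, the 14 were 2 RNA sensors, 3 ADP-ribosylation genes, 3 of the ISG15 system, 3 RNA-binding effectors, STAT2, TAP1 and SAMD9. F6 was singled out with earlier results of these data in view, so the p-values do not carry that choice, and it is 1 clone. With lines as the unit, 1 line against 7 cannot go below a one-sided exact p of 0.125. For F6 against B7 and G6 alone that floor is higher still. Poly(A) counts from pooled cells cannot tell more transcript per cell from more cells that express it.

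**Figure D1:**
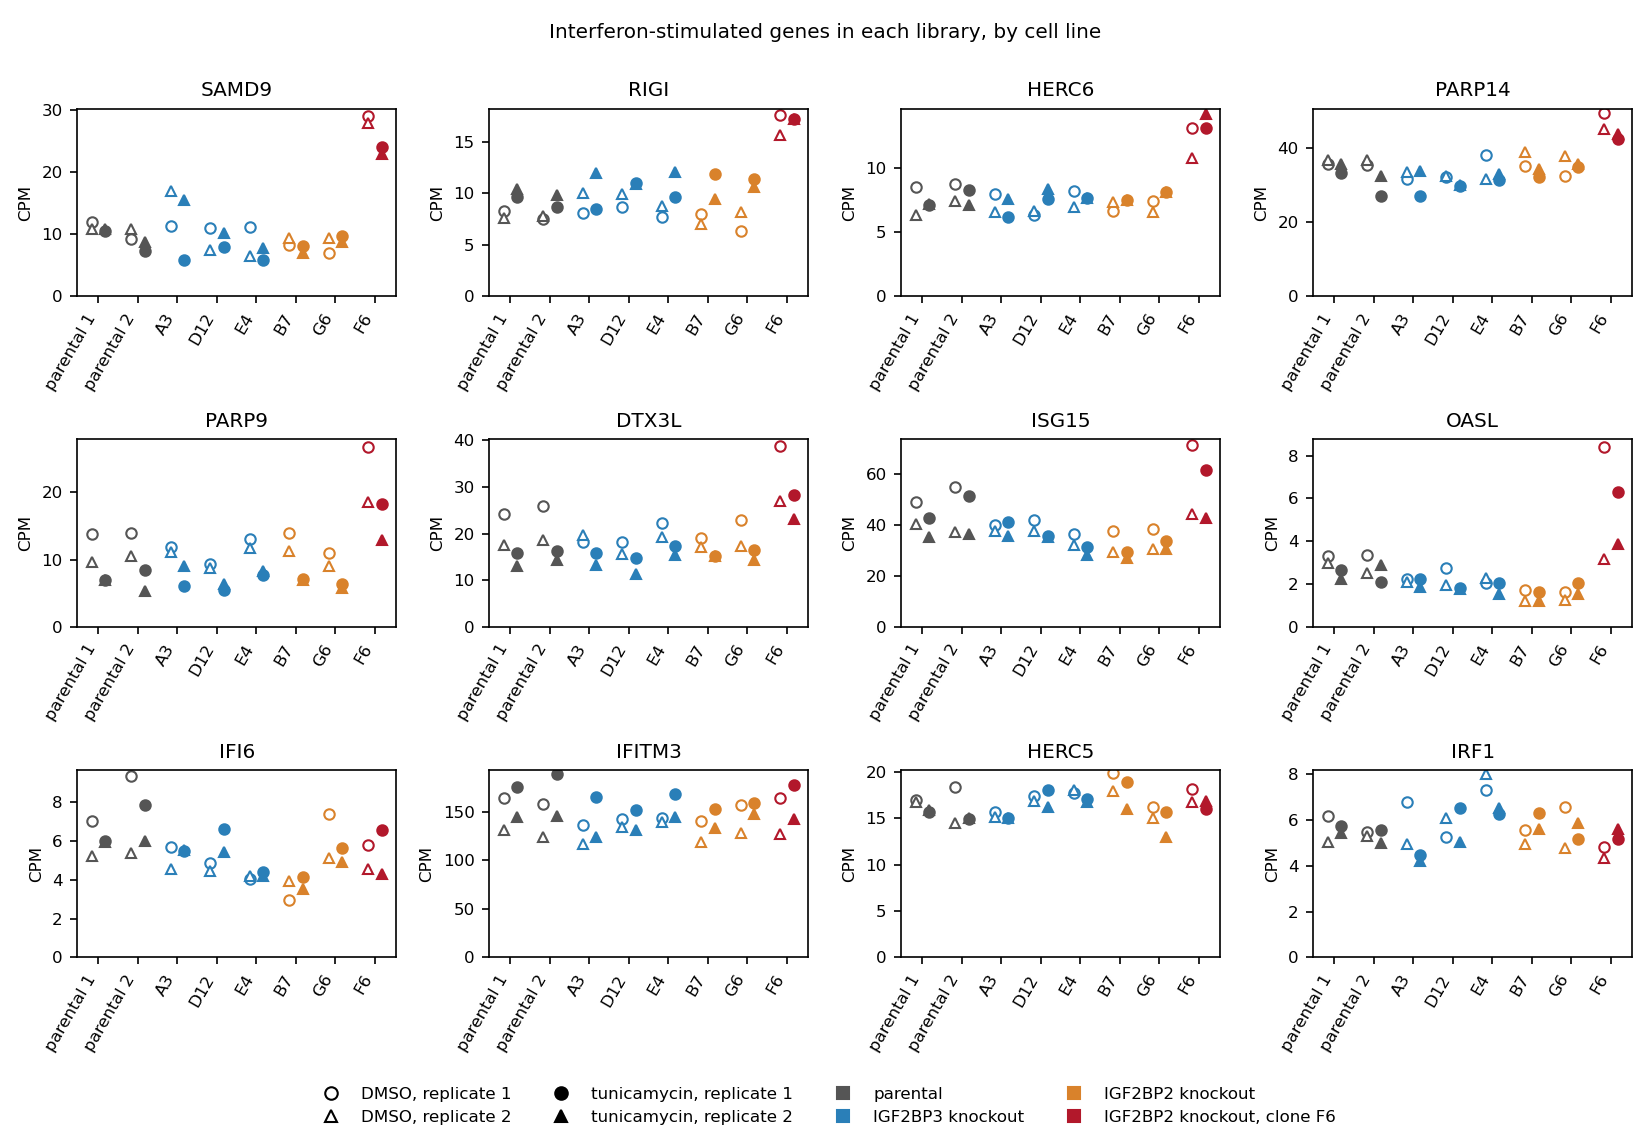
Level in CPM (vertical axes, starting at 0) of 12 interferon-stimulated genes in each of the 32 libraries, by line. Open symbols are DMSO, filled symbols tunicamycin, circles replicate 1 and triangles replicate 2; in SAMD9, RIGI, HERC6 and PARP14 the 4 red points of F6 lie above all 28 others, and in HERC5 and IRF1 they lie among them.

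SAMD9, a growth-restraining and antiviral protein, had the lowest adjusted p of the members in this comparison. It was at 29.1 and 27.9 CPM in the DMSO libraries of F6 and at 24.1 and 22.9 CPM in tunicamycin, against 6.93 to 9.75 CPM (median 8.55) in the 8 libraries of B7 and G6. All 4 F6 libraries were above all 28 others, which reached 16.9 CPM in clone A3. It was 3.06-fold higher than in B7 and G6, or 1.61 on the log2 scale (SE 0.101, adjusted p 1.91e-07 by edgeR), and 1.38 (SE 0.0923, adjusted p 1.67e-07) against parental cells. Its close relative SAMD9L never exceeded 0.104 CPM.

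The RNA sensors rose together: both that could be tested were higher. RIGI, which recognises 5′-triphosphate RNA, stood at 17.6 and 15.7 CPM in DMSO and at 17.3 and 17.3 CPM in tunicamycin in F6. In the other 28 libraries it ran from 6.38 to 12.1 CPM with a median of 9.11, so the groups did not overlap. It exceeded B7 and G6 by 0.92 on the log2 scale (SE 0.108, adjusted p 6.32e-05 by edgeR) and parental cells by 0.98 (SE 0.0717). IFIH1 (MDA5), which recognises long double-stranded RNA, was at 8.16 and 5.04 CPM in DMSO and 7.25 and 7.07 CPM in tunicamycin, against 2.66 to 5.46 CPM in B7 and G6. It was higher by 0.83 (SE 0.200, adjusted p 0.0151 by edgeR), but one F6 library overlapped the other lines, and the call was lost in 4 of 13 alternatives, with an adjusted p of 0.215 without replicate 1 of F6. The regulator DHX58 averaged 0.209 CPM and was not tested.

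All 3 genes of the ADP-ribosylation group were higher. PARP9 and DTX3L form a complex of an ADP-ribosyltransferase and a ubiquitin ligase, and in GENCODE release 29 their genes overlap head to head on chromosome 3, sharing 217 exon bases on opposite strands (2.4% of those of PARP9 and 3.7% of those of DTX3L). Without a stated strand setting, reads from the shared bases cannot be told apart. PARP9 in F6 was at 26.8 and 18.5 CPM in DMSO and at 18.2 and 12.9 CPM in tunicamycin, against 5.71 to 13.9 CPM in B7 and G6. DTX3L was at 38.9 and 26.9 CPM in DMSO and at 28.3 and 23.1 CPM in tunicamycin, against 14.4 to 22.9 CPM. Both genes were highest in F6 within every set of libraries of one treatment and replicate number. In both, the F6 tunicamycin library of replicate 2 overlapped DMSO values of other lines. Against B7 and G6 they were higher by 1.11 (SE 0.126, adjusted p 4.84e-05 by edgeR) for PARP9 and 0.77 (SE 0.0966, adjusted p 0.000126) for DTX3L. PARP14, a macrodomain ADP-ribosyltransferase further along the same chromosome, was at 49.3, 45.0, 42.2 and 43.8 CPM in the 4 F6 libraries and between 26.9 and 38.9 CPM in all others. Its difference from B7 and G6 was small but tight, at 0.36 (SE 0.0596, adjusted p 0.00123 by edgeR), and it was not called in replicate 2 libraries alone (adjusted p 0.0692).

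In the ISG15 system, which attaches and removes the ISG15 modifier, 3 of 5 genes were higher. HERC6, a HECT-type ligase, was at 13.1 and 10.8 CPM in DMSO and 13.1 and 14.2 CPM in tunicamycin in F6, above all 28 other libraries (6.14 to 8.74 CPM). Against B7 and G6 it was higher by 0.79 (SE 0.0769, adjusted p 1.47e-05 by edgeR). HERC5, the main human ISG15 ligase and the neighbour of HERC6 on chromosome 4 with start sites 78378 bases apart, was not called (0.03). ISG15 itself was at 71.2 and 44.2 CPM in DMSO and at 61.3 and 42.5 CPM in tunicamycin in F6, with replicate 1 the higher in both treatments. B7 and G6 lay between 26.9 and 38.5 CPM, below every F6 library, but parental libraries reached 54.9 CPM. ISG15 was called against B7 and G6 (0.77, SE 0.120, adjusted p 0.000727 by edgeR) and not against parental cells (0.35, SE 0.136, adjusted p 0.109). Some alternatives did call it against parental cells. With the replicate number as a term it was higher by 0.34 (adjusted p 0.000118 by edgeR). Within replicate 1 libraries it was higher by 0.43 (adjusted p 0.00223) and within replicate 2 by 0.22 (adjusted p 0.00726). USP18, which removes ISG15 and dampens receptor signalling, was higher by 0.65 (SE 0.185, adjusted p 0.0361 by edgeR), and the call was lost in 5 of 13 alternatives. The conjugating enzyme UBE2L6 was not called (0.11).

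Of the RNA-binding effectors 3 of 6 tested were higher. OASL, a relative of the synthetases that enhances RIGI signalling, was at 8.40 and 3.16 CPM in DMSO and 6.30 and 3.85 CPM in tunicamycin in F6, against 1.20 to 2.04 CPM in B7 and G6. Replicate 1 was again the higher, and the parental range (2.10 to 3.37 CPM) overlapped the lowest F6 library. OASL was still highest in F6 within each set of one treatment and replicate number. It exceeded B7 and G6 by 1.83 (SE 0.236, adjusted p 0.000155 by edgeR) and parental cells by 0.98 (SE 0.212, adjusted p 0.00651), and the latter was lost without replicate 1 of F6 (adjusted p 0.264). IFIT1, which binds RNA lacking a host cap, was at 3.46 and 2.73 CPM in DMSO and 1.07 and 1.46 CPM in tunicamycin. B7 and G6 lay at 1.08 to 1.79 CPM in DMSO and 0.202 to 0.887 CPM in tunicamycin, below F6 within each treatment. In the F6 tunicamycin libraries IFIT1 overlapped DMSO values of B7 and G6. It was higher by 1.06 (SE 0.258, adjusted p 0.0154 by edgeR) at these low counts, and the call was lost when either replicate of F6 was left out. OAS3 in F6 lay between 64.0 and 83.4 CPM, close to the parental range of 62.1 to 81.5 CPM. It was higher than in B7 and G6 by 0.32 (SE 0.0828, adjusted p 0.0222 by edgeR), and the call was lost in 4 of 13 alternatives, with an adjusted p of 0.12 without clone B7, the line with the lowest OAS3, and 0.279 without replicate 1 of F6. IFIT2 (0.55), IFIT3 (0.31) and IFIT5 (0.08) were not called.

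Of the 3 transcription factors tested only STAT2 was called. Its 4 F6 libraries ran from 22.2 to 30.3 CPM and were the highest in each set, but the 28 others ran from 14.6 to 27.8 CPM, and the difference of 0.31 (SE 0.0858, adjusted p 0.0334 by edgeR) was lost in 6 of 13 alternatives. IRF1 (-0.17) and IRF7 (-0.06), which drive interferon genes and their targets, were not called. TAP1, the peptide transporter of antigen processing, was higher by 0.50 (SE 0.119, adjusted p 0.0136 by edgeR). Its F6 range of 15.1 to 22.3 CPM overlapped the parental range of 13.1 to 21.3 CPM, although F6 was the highest line in each set of one treatment and replicate number. The call was lost in 3 of 13 alternatives, with an adjusted p of 0.0824 without clone B7 and 0.315 without replicate 1 of F6. The immunoproteasome subunit PSMB9 was at 0.78 (adjusted p 0.0966 by edgeR). Among the membrane and virus-restriction genes SAMD9 was the only one of 7 tested that was called: IFITM2 (-0.21), IFITM3 (0.10), BST2 (0.14), CMPK2 (0.55), ISG20 (-0.11) and MX1 (0.86, adjusted p 0.184) were not. IFI6 (0.16) and IFI35 (-0.01) were not called either. MX1 lay near the filter on low counts: it was tested in the F6 comparisons and not in B7 and G6 against parental cells.

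**Figure D2:**
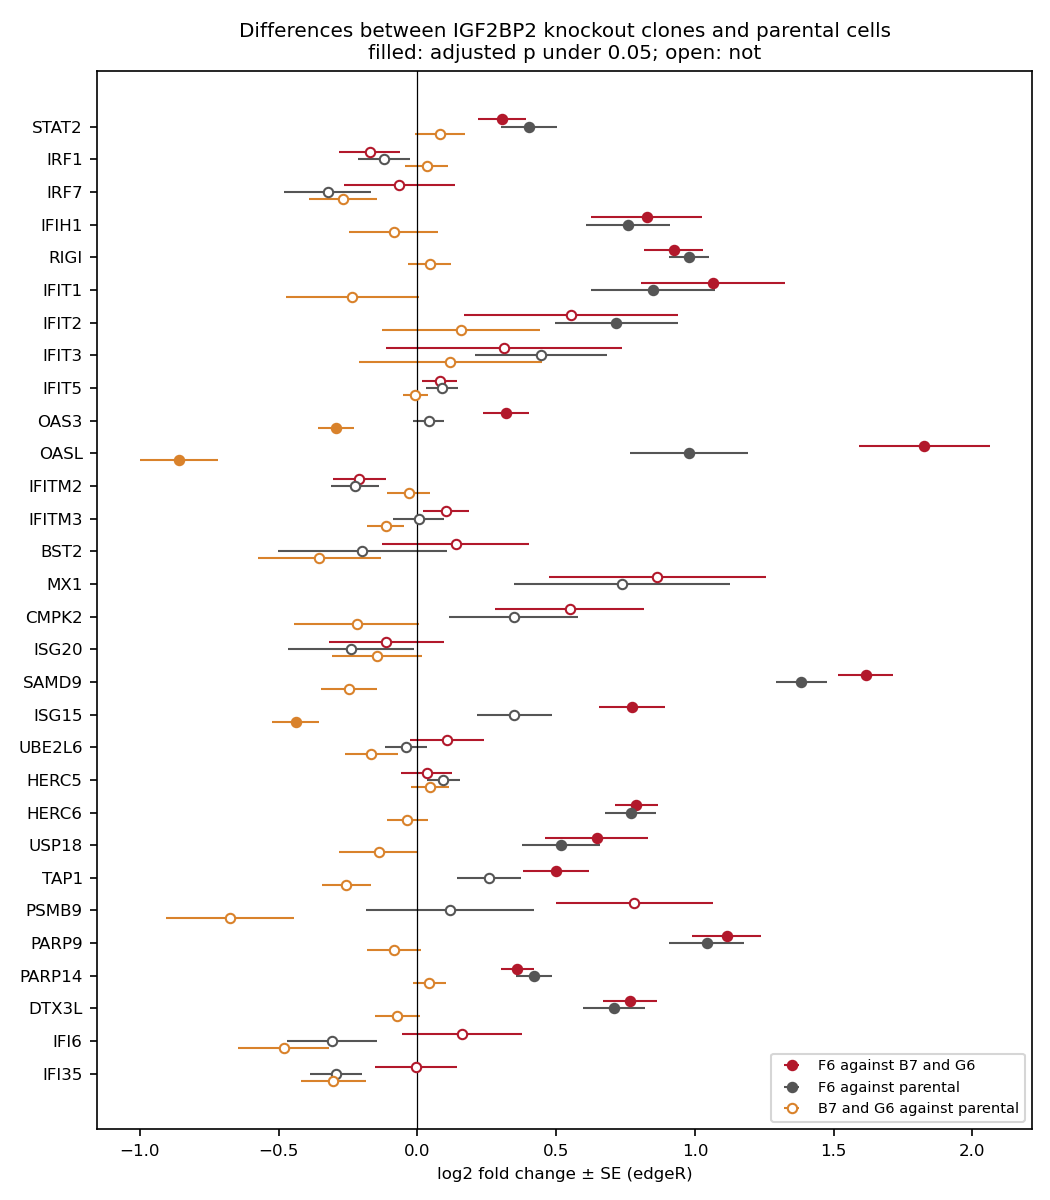
log2 fold change with its SE (horizontal axis) of the 30 members tested in clone F6 against B7 and G6 (red), F6 against parental cells (grey) and B7 and G6 against parental cells (orange). Filled points have an adjusted p under 0.05; red and grey points of SAMD9, PARP9, RIGI, HERC6, DTX3L and PARP14 lie together to the right, and the only filled orange points are OAS3, OASL and ISG15, to the left.

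Set against parental cells, F6 had 12 members higher and 0 lower of 30, beside 7.26% of 15095 genes higher and 6.70% lower. These were PARP9 (1.04), DTX3L (0.71), PARP14 (0.42), HERC6 (0.77), SAMD9, RIGI, IFIH1 (0.76), IFIT1 (0.85), IFIT2 (0.72), STAT2 (0.40), OASL and USP18 (0.52). The IFIT2 call, at an adjusted p of 0.0452 by edgeR, was lost in 10 of 13 alternatives, that of USP18 in 4 of 14, and those of IFIT1 and OASL in 2 of 14 each. With the replicate number as a term 14 members were higher, ISG15 and TAP1 besides these, and 3 lower: IFI6 (-0.31), IFITM2 (-0.22) and IFI35 (-0.29). That fit called 4058 of all genes in either direction, beside 2108 without the term. Against all 7 other lines 13 were higher and 0 lower, beside 5.21% and 4.72% of all genes. The 3 comparisons share the F6 libraries, and 11 members were called in each: DTX3L, HERC6, IFIH1, IFIT1, OASL, PARP14, PARP9, RIGI, SAMD9, STAT2 and USP18. In 10 of the 30 members F6 was the highest of the 8 lines in all 4 sets of one treatment and replicate number, beside 3.10% of all genes, and in 4 members (RIGI, SAMD9, HERC6 and PARP14) all 4 F6 libraries exceeded all 28 others, beside 0.685% of all genes. Without replicate 1 of F6, 8 members were called against B7 and G6 and 7 against parental cells, and the median against parental cells fell from 0.35 to 0.04. Of all genes 691 and 1345 were called there, beside 1714 and 2108 with that replicate. Replicate 1 was the higher in other lines too for ISG15 and TAP1 (16 of 16 pairs of one line and treatment) and OASL (14 of 16), so that leaving it out of F6 alone also sets replicate 2 against both replicates of the rest. Within replicate 2 libraries of every line, 7 members were higher against B7 and G6 and 10 higher and 1 lower against parental cells, with medians of 0.28 and 0.17. Within replicate 1 libraries it was 9, and 13 and 1, with medians of 0.51 and 0.38. The lower gene was IFITM2 both times. Of all genes, 392 were called against B7 and G6 in each of these replicates. Against parental cells 3351 genes were called in replicate 2 and 1700 in replicate 1. SAMD9, PARP9, DTX3L, HERC6 and RIGI were called in every alternative of both comparisons.

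In B7 and G6, clones of the same knockout, the called members were lower than in parental cells. Of 29 members tested against parental cells, 0 were higher and 3 lower, beside 1.40% of all genes higher and 1.40% lower. The log2 fold change was -0.86 for OASL (SE 0.140, adjusted p 0.00333 by edgeR), -0.44 for ISG15 (SE 0.0849, adjusted p 0.00944) and -0.29 for OAS3 (SE 0.0649, adjusted p 0.0209). B7 was the lower of the pair in OAS3, at 53.8 ± 5.79 CPM (SD, n = 4) against 64.0 ± 7.40 in G6 and 72.1 ± 7.39 (SD, n = 8) in parental cells. Without clone B7 1 member was called and without clone G6 7 were, and with counts summed per line, so that each line counts once, 0 were. B7 also had the lowest IFI6, an inhibitor of virus replication and apoptosis, at 3.63 ± 0.511 CPM (SD, n = 4).

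**Figure D3:**
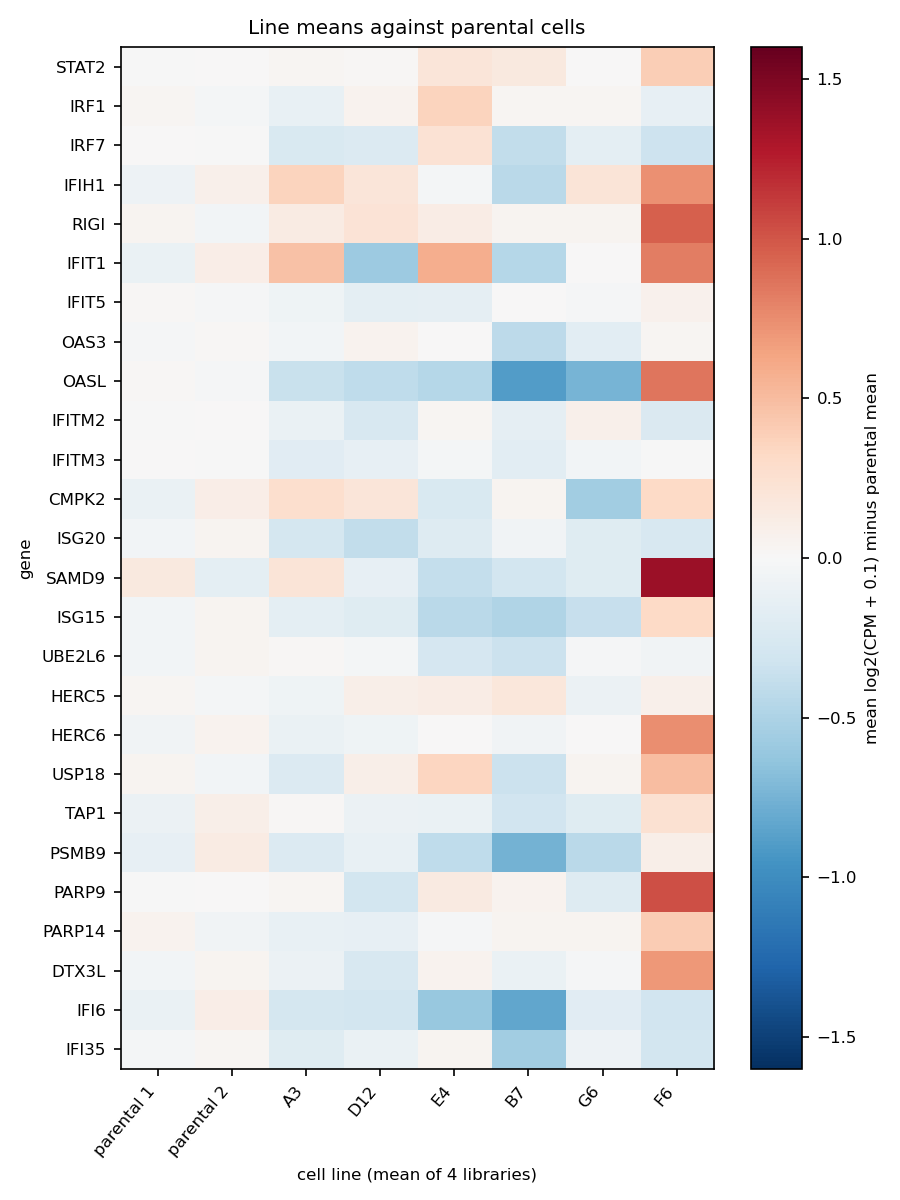
Mean log2(CPM + 0.1) of each line's 4 libraries minus the parental mean (colour, red higher and blue lower) for the 26 members with a mean of at least 1 CPM. The F6 column is red for SAMD9 (1.37), PARP9 (1.03), RIGI (0.96) and HERC6 (0.75) and blue for IRF7 (-0.33); the B7 column is blue for OASL (-0.90) and IFI6 (-0.82).

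The genes around the pathway were called less often in F6 than the members were. Against B7 and G6, 5.44% of all genes tested were higher and 6.02% lower. Of the receptors and JAK-STAT genes, 10 were tested against B7 and G6 and 1 was called, IFNGR2, the accessory chain of the interferon gamma receptor, which was lower (-0.33, edgeR adjusted p 0.0332). Of 22 further interferon-induced genes tested, 4 were higher, TRIM21 (0.41), SP100 (0.30), PARP12 (0.25) and TRIM25 (0.23), and 0 lower. Of 13 antigen-presentation genes 4 were higher, the peptidases ERAP2 (0.78) and ERAP1 (0.39) and the class I molecules HLA-F (0.67) and HLA-E (0.23). Of 5 genes that restrain the signal 0 were called. Lists of 5 and 10 genes are too short to tell 0 or 1 calls from the shares of all genes. These lists were drawn up with earlier results of these data known.

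Some NF-kB targets and epithelial markers also differed in F6. Of 8 NF-kB targets tested, 2 were higher against B7 and G6, the survival gene BIRC3 (1.23, adjusted p 2.19e-05 by edgeR) and the feedback inhibitor TNFAIP3 (0.51, adjusted p 0.0180), and 5 were higher against parental cells, where 5.44% and 7.26% of all genes were higher. BIRC3 was at 14.9, 11.4, 14.7 and 15.2 CPM in the 4 F6 libraries and between 2.46 and 8.35 CPM in all others. Of 7 epithelial markers tested, 5 were higher against B7 and G6, led by CDH1 (1.61, adjusted p 4.73e-06) and EPCAM (0.61), and CDX2 was lower (-0.36); against parental cells 2 were higher and 1 lower. The 10 epithelial markers summed to 4117 to 5458 CPM in F6, 3033 to 4149 CPM in B7 and G6 and 3565 to 5144 CPM in parental cells. The 6 leukocyte markers summed to at most 0.189 CPM in F6 and 0.468 CPM elsewhere, with TYROBP at 0 throughout, and the 6 fibroblast markers, nearly all COL1A1, to 4.70 to 8.68 CPM in F6 and 6.74 to 12.2 CPM elsewhere. IGF2BP2 itself was 0.14 higher in F6 than in B7 and G6 (adjusted p 0.0353 by edgeR). The part of any of these in the higher interferon-stimulated genes was not tested.

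Comparisons of each knockout as a whole called no member, at shares of all genes so low that this says little about the set. Knockout and parental cells were compared within each treatment, and knockouts with each other, and 0 members passed in any of the 6 comparisons by edgeR. After adjustment 1.61% and 0.718% of all genes were called in IGF2BP3 knockout cells in DMSO and tunicamycin, 0.0137% and 0.00694% in IGF2BP2 knockout cells, and 0.589% and 0.391% between the knockouts. At an unadjusted p under 0.05 there were 3 members (10.3%) in DMSO and 3 (10.3%) in tunicamycin in IGF2BP3 knockout cells, beside 13.7% and 10.3% of all genes. In IGF2BP2 knockout cells there were 0 and 3, beside 4.74% and 6.97%, and between the knockouts 3 and 6, beside 14.0% and 14.7%. The members' median log2 fold changes were -0.04 and -0.01 for IGF2BP3 knockout and 0.04 and 0.07 for IGF2BP2 knockout in DMSO and tunicamycin, and the latter became -0.15 and -0.11 without F6. In OASL, for example, F6 was at 3.16 to 8.40 CPM and B7 and G6 at 1.20 to 2.04 CPM, on either side of the parental median of 2.79 CPM.

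IFI6 came closest to a genotype difference. It was at 7.02, 5.24, 9.32 and 5.36 CPM in the parental DMSO libraries and at 4.03 to 5.70 CPM, median 4.48, in the 6 IGF2BP3 knockout DMSO libraries, so the groups overlapped. The overlap was across replicate numbers. Knockout libraries were at 4.03 to 5.70 CPM in replicate 1, against 7.02 and 9.32 CPM in parental cells. In replicate 2 IFI6 was at 4.21 to 4.53 CPM, against 5.24 and 5.36 CPM. On the log2 scale it differed by -0.54 (SE 0.154, adjusted p 0.102 by edgeR). DESeq2 and the fit with the replicate number as a term each called IFI6 lower in this comparison, and no filter on low counts called IFI6 and ISG15. Among the IGF2BP3 knockout clones, IFIT1 differed between lines (adjusted p 0.0153 by edgeR), with means of 1.56 ± 0.417 CPM in A3, 0.768 ± 0.425 in D12 and 1.72 ± 0.584 in E4 (SD, n = 4 each). ISG15 differed as well (adjusted p 0.0384), from means of 38.5 ± 2.42 CPM in A3 and 37.4 ± 3.07 in D12 to 28.1 to 36.3 CPM, median 31.8, in E4. That is 2 of 29 members, beside 7.05% of all genes, and without either replicate of D12 or of E4 the count was 0. Between the parental samples 0 of 29 members and 0% of all genes differed by edgeR, with 1 member and 253 genes at an unadjusted p under 0.05.

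Tunicamycin called some members in each direction, at shares near those of all genes. In parental cells 3 members rose and 4 fell of 29, beside 12.1% and 13.8% of all genes; in the IGF2BP3 knockout 3 rose and 5 fell of 29, beside 15.3% and 16.8%; in IGF2BP2 knockout cells 5 rose and 6 fell of 30, beside 18.2% and 20.1%. IRF7 and ISG20 were called higher in each genotype. The members' medians were -0.09, -0.09 and 0.01.

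**Figure D4:**
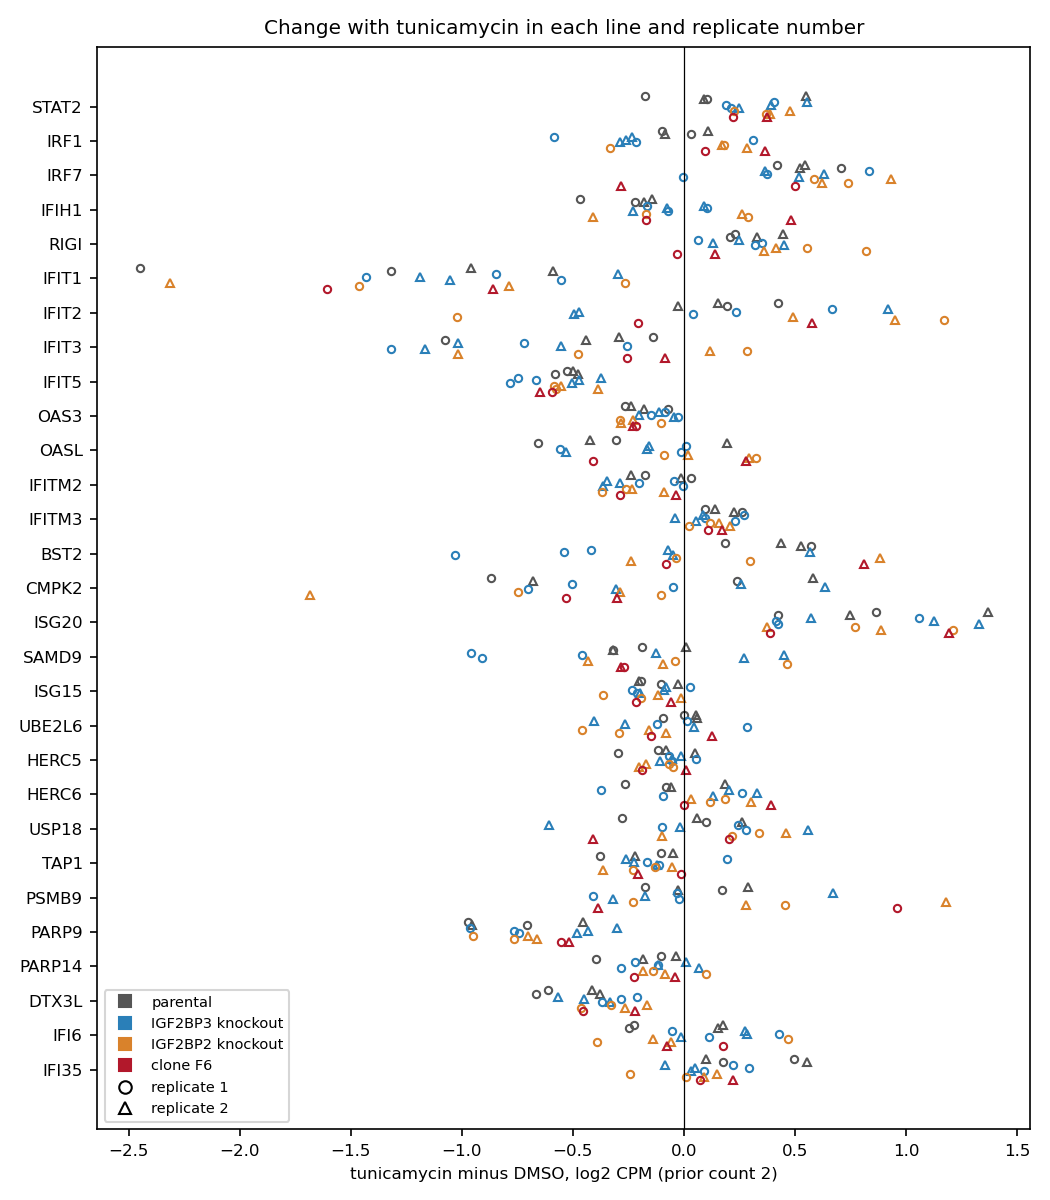
Change with tunicamycin, as log2 CPM (prior count 2) in tunicamycin minus DMSO (horizontal axis), for each of the 16 pairs of one line and replicate number and each member tested. All 16 points lie to the right of 0 for ISG20 and to the left for IFIT1, IFIT5, OAS3, PARP9 and DTX3L, with F6 (red) among the others.

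ISG20, an exonuclease that degrades viral RNA, had the largest increase. In parental cells it went from 1.32, 1.59, 1.68 and 2.10 CPM in DMSO to 2.48, 4.25, 2.29 and 3.58 CPM in tunicamycin, in the same order of libraries, with no overlap. It rose by 0.93 in parental cells (SE 0.262, edgeR adjusted p 0.0262), by 0.87 in IGF2BP3 knockout clones and by 0.87 in IGF2BP2 knockout clones, and it was higher in 16 of 16 pairs, as were 11.9% of all genes. Its call was lost in 2 of 9 alternatives in parental cells and 1 of 8 in IGF2BP3 knockout cells. IRF7, the inducible factor for interferon alpha genes, rose by 0.57, 0.45 and 0.56 and was higher in 14 of 16 pairs; at 1.43 to 3.82 CPM its call was lost in 6 of 9 alternatives in parental, 4 of 8 in IGF2BP3 knockout and 3 of 9 in IGF2BP2 knockout cells. RIGI was higher in 15 of 16 pairs and was called in parental (0.31) and IGF2BP2 knockout (0.38) cells, calls lost in 5 of 9 and 3 of 9 alternatives; DESeq2 gave an adjusted p of 0.0698 in parental cells. STAT2, higher in 15 of 16 pairs, was called in IGF2BP3 knockout (0.35, lost in 3 of 8 alternatives) and IGF2BP2 knockout (0.37) cells. HERC6 was called in IGF2BP2 knockout cells (0.19, adjusted p 0.0499 by edgeR) and lost in 6 of 9 alternatives.

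IFIT1, IFIT5, PARP9 and DTX3L fell in all 3 genotypes. IFIT5, the member of its family most abundant here, went in parental cells from 43.1, 36.7, 41.5 and 36.3 CPM to 30.0, 26.0, 27.7 and 26.1 CPM, without overlap. The log2 fold changes were -0.52 (SE 0.0673, edgeR adjusted p 0.000311) in parental, -0.58 in IGF2BP3 knockout and -0.54 in IGF2BP2 knockout cells, and it was lower in 16 of 16 pairs by 0.37 to 0.78. IFIT1, whose gene starts 22040 bases from that of IFIT5, had log2 fold changes of -1.35, -0.87 and -1.21, and went from 1.76 ± 0.250 CPM (SD, n = 4) in parental DMSO libraries to 0.691 ± 0.285 CPM. PARP9 fell from 11.9 ± 2.23 to 6.96 ± 1.27 CPM (SD, n = 4) in parental cells, with log2 fold changes of -0.78, -0.60 and -0.67, and DTX3L had -0.53, -0.36 and -0.31, the last lost in 3 of 9 alternatives. OAS3 was lower in all 16 pairs too, by at most 0.29, and was called in IGF2BP2 knockout cells (-0.20), though not without clone B7 (adjusted p 0.0709 by edgeR). These 5 genes were lower in 16 of 16 pairs, as were 16.1% of all genes. IFIT3 was called in IGF2BP3 knockout cells (-0.94, lost in 2 of 7 alternatives), where IFIT2 (0.12) was not, and IFIT2 was higher in 11 of 16 pairs.

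The response to tunicamycin was not shown to depend on genotype or clone. Interactions with IGF2BP3 knockout, IGF2BP2 knockout and clone F6 called 0 members and 0% of all genes by edgeR, with 257, 219 and 230 genes and 0, 0 and 1 members at an unadjusted p under 0.05. The higher PARP9 and DTX3L levels of F6 fell with tunicamycin as well: PARP9 fell by 0.55 and 0.52 in the F6 pairs, within the range of 0.30 to 0.97 over the 16 pairs. A gene that misses the threshold is not shown to respond alike.

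The members did not vary as one unit across the 32 libraries. As a description, with libraries sharing lines and replicate numbers, each member's correlation with the mean of the other members of at least 1 CPM ran from -0.40 (ISG20) to 0.87 (ISG15), with OASL at 0.86, DTX3L at 0.80 and TAP1 at 0.79. Without the 4 F6 libraries, RIGI went from 0.37 to -0.38, PARP14 from 0.42 to -0.17 and SAMD9 from 0.57 to 0.09, while OAS3 (0.65 to 0.75), ISG15 (0.74) and TAP1 (0.71) stayed high. ISG15 and TAP1 were higher in replicate 1 in 16 of 16 pairs of one line and treatment, and OAS3 in 14. RIGI and SAMD9 were so in 7 pairs each and PARP14 in 2. The part of replicate number in these correlations was not tested. PARP9 and DTX3L, whose windows hold the same ISRE, correlated with r = 0.90 over 32 libraries and 0.80 over the 28 without F6.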

How the data were processed

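Poly(A) RNA of 32 HCT116 libraries was made into strand-specific libraries and read from both ends, per the labels' protocols. The authors deposited raw counts per gene as 1 table; STAR 2.7.5c and hg38 appear in the submitters' processing notes, and the counting tool, annotation and strand setting are not given in the sources used here. Groups came from the sample titles. The 42 members, the other lists and the attention to clone F6 were chosen with earlier results of these data known.

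Each comparison was fitted to the libraries it concerns with edgeR 4.0.16 in R 4.3.3 (TMM, filterByExpr, quasi-likelihood test), with p-values adjusted by Benjamini-Hochberg over all genes tested and called under 0.05. Comparisons of lines had treatment as a term, comparisons of treatments and interactions had line as a term, and genotype comparisons had none. SEs follow from the F statistic. Log2 CPM used a prior count of 2. The fits were first tested on simulated counts. Alternatives were DESeq2 1.42.0, its size factors in edgeR, no filter, a mean CPM of at least 1, the replicate block, line as a term, counts summed per line, the fits without the G6 control libraries, and leaving out lines or replicates, or, chosen after seeing the data, a replicate number in every line. Positions come from GENCODE release 29 (GRCh38) and promoters from RefSeq (GRCh38.p14), neither known to underlie the counts.

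All 42 members could be named. Values by library were given for the 12 members with the largest differences among those called in F6 against B7 and G6, and for others a result turned on; genes of other lists were named where called or where needed to show a level.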

Additional observations from a re-analysis of the deposited data

Results flagged for a closer look

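Within the 6 groups of 4 or 6 libraries, 12 of 180 group tests had a highest or lowest library far from the rest of its group, where chance flags about 1 in 20. In parental DMSO cells, sample 2 replicate 1 had the highest IFIT3 (1.31 CPM, next library 0.687 CPM) and sample 2 replicate 2 the lowest USP18 (2.53 CPM, next 3.61 CPM). In parental tunicamycin cells, sample 2 replicate 1 had the highest HERC6 (8.25 CPM, next 7.20 CPM) and the highest IFI6 (7.83 CPM, next 5.99 CPM). In IGF2BP3 knockout DMSO cells, replicate 1 of E4 was highest in IRF7 (3.74 CPM, next 2.36 CPM) and PARP14 (38.1 CPM, next 33.4 CPM). Replicate 2 of E4 was highest in IFIT2 (1.70 CPM, next 0.895 CPM), and replicate 2 of A3 was lowest in IFITM3 (117 CPM, next 135 CPM). In IGF2BP3 knockout tunicamycin cells, replicate 1 of A3 was lowest in HERC6 (6.14 CPM, next 7.56 CPM). In IGF2BP2 knockout DMSO cells, replicate 1 of F6 was highest in OASL (8.40 CPM) and ISG15 (71.2 CPM), and the next library was the other replicate of F6 in both (3.16 and 44.2 CPM). In IGF2BP2 knockout tunicamycin cells, replicate 1 of F6 was highest in PSMB9 (2.39 CPM, next 1.23 CPM).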

How the results depend on the processing

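Of 215 counts of called members under the alternatives, 187 stayed within 1.5 times the reported count and 28 did not, none of the members' differences changed direction past the threshold, and 32 of 70 calls were never lost. Leaving out a line or replicate gave 7 to 16 called members for F6 against B7 and G6, 7 to 14 against parental cells and 6 to 13 against all other lines. The fits without replicate 1 or without replicate 2 of any line were chosen after seeing the data; against B7 and G6 they gave 7 and 9, from fewer samples. It gave 1 to 7 for B7 and G6 against parental cells, 0 to 7 among the IGF2BP3 knockout lines, and for tunicamycin 4 to 7 in parental cells, 4 to 6 in IGF2BP3 knockout and 5 to 9 in IGF2BP2 knockout cells. For B7 and G6 against parental cells the count was 0 with counts summed per line, which leaves fewer samples, 5 with line as a term and 5 without the G6 control libraries; without replicate 1 of parental sample 1 it was 1. IGF2BP3 knockout against parental cells in DMSO gave 1 with DESeq2 and 2 with no filter on low counts. Without the G6 control libraries tunicamycin called 7 members in IGF2BP2 knockout cells. The causes of these changes were not tested. Same-numbered libraries deviated together in most cases: the deviations correlated with r 0.0617 to 0.684 (median 0.482), above 0.1 in 118 of 120 pairs. All 120 correlations were positive, so the fits as reported leave out a shared deviation that these values show. The labels give the numbers no shared batch or day, and the block was planned and kept as an alternative. With the replicate block the count was 14 for F6 against B7 and G6, 17 against parental cells (14 higher, 3 lower), 5 among IGF2BP3 knockout lines, 1 for IGF2BP3 knockout against parental cells in DMSO, and 12, 12 and 14 for tunicamycin in parental, IGF2BP3 knockout and IGF2BP2 knockout cells. Over all genes the block moved the calls from 1714 to 2483 for F6 against B7 and G6. For F6 against parental cells it moved them from 2108 to 4058. Genes under 1 CPM, 16 of the 42, rest on few counts, and a difference in them was mostly not detectable at this depth.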

Other observations

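The genes outside the set whose log2 CPM was most alike, over 32 libraries, to the mean of the members' scaled levels were F2RL1 (r = 0.88), SPINT1 (0.87), SECTM1 (0.85), EPHB2 (0.85), SFN (0.85), BCAR3 (0.85), SERPINB1 (0.85) and CRABP2 (0.84). The likeness leans on F6 only in part: without its 4 libraries the correlations were 0.66 to 0.80. The members' mean was also higher in replicate 1 than in replicate 2 in every pair of one line and treatment. In DMSO it was 0.567 and -0.216 in parental sample 1 and 1.33 and 0.480 in F6. The part of replicate number in the likeness was not tested. F2RL1, a protease-activated receptor, averaged 333 CPM in F6 and 232 CPM in the other lines, and CRABP2, a retinoic acid binding protein, 145 and 74.1 CPM.

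Some members differed by replicate number in every line, at a share near that of all genes. Of the 26 members of at least 1 CPM, ISG15, IFITM3 and TAP1 were higher in replicate 1 in 16 of 16 pairs of one line and treatment. The same held for 10.8% of the 12723 genes of at least 1 CPM. Between 21259 and 23139 genes were detected in the replicate 1 libraries, against 23423 to 24267 in replicate 2. TAP1 averaged 17.4 CPM in replicate 1 and 13.9 CPM in replicate 2. PARP14 went the other way, higher in replicate 1 in 2 of 16 pairs.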
